A study of Homo sapiens with 12 samples.

Results

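The canonical histone genes of the human genome lie in clusters, and 71 protein-coding genes of these clusters were followed through 4 siRNA groups of keratinocytes. They were taken by name: every gene of the count table whose symbol starts with HIST1H, HIST2H, HIST3H or HIST4H and whose biotype is protein coding, 71 of 58735 listed genes and of 19951 protein-coding ones. On chromosome 6 lie 55 of them, between 25726132 and 27893843 of the hg38 build, 15 lie on chromosome 1 and 1 on chromosome 12. By the protein they encode, 6 are linker histone H1 genes, 17 H2A, 18 H2B, 15 H3 and 15 H4 genes. N/TERT-2G cells, an immortalised line of human skin keratinocytes, were grown in serum-free keratinocyte medium and transfected in 6-well plates with siRNA at 100 pmol and a lipid reagent at 5 μl per well, and the medium was changed after 6 h. The 4 groups received a negative control siRNA, ATF3 siRNA (against a stress-responsive transcription factor), APOE siRNA (against apolipoprotein E) or CXCL14 siRNA (against an epithelial chemokine). Each group holds 3 libraries, 12 in all, made from RNA that was purified on oligo-dT beads. The siRNA sequences, the time of harvest and whether the 3 libraries of a group came from separate cultures are not given, so p-values measure only the spread between these libraries, which may be technical.

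Most cluster genes are transcribed in S phase, when new DNA is packed into nucleosomes. Their transcripts are the known exception among metazoan messenger RNAs: they end at a short conserved stem-loop, bound by the protein SLBP, and carry no poly-A tail. Some cluster genes also give transcripts that run past the stem-loop to a poly-A signal, and these are known from cells that stop dividing or differentiate. Libraries selected by poly-A tail therefore see mainly this second kind, and a gene's count does not say how many replication-phase histone transcripts the cell holds. Counts per gene do not separate transcripts that end at the stem-loop from those that end in a tail.

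The stem-loop was looked up in the gene models because it marks where the tailless transcript ends. The pattern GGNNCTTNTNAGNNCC, 16 bases on the transcript strand, was searched after the stop codon of GENCODE 29 transcripts on GRCh38, whose coordinates and strands equal those of the count table for 71 of 71 genes. Of the 36 histone genes whose model holds bases after the stop codon, 32 (88.9%) have it there, against 42 of 19359 other protein-coding genes (0.217%). The 32 copies take 6 forms, shown here by 1 gene each, with the stem-loop in capitals and the flanking bases in lower case.
HIST1H2AC: ccaaaGGCTCTTTTCAGAGCCccccta
HIST1H4H: ccaaaGGCCCTTTTCAGGGCCgcccac
HIST1H2BC: ccaaaGGCTCTTTTAAGAGCCacccag
HIST1H4I: aaaaaGGCCCTTTTTAGGGCCcctaag
HIST1H3E: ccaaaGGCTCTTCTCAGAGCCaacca
HIST1H2AG: ccaacGGCTCTTTTCAGGGCCacccac
The first form was found in 17 genes, the next 2 in 5 genes each, the HIST1H4I form in 3, and the last 2 in 1 gene each. The stem-loop of HIST1H2AC lies at chr6:26124669-26124684 on the plus strand, 43 bases after the stop codon. Those of HIST1H4H (chr6:26285131-26285146, minus strand), HIST1H4I (chr6:27139654-27139669, plus strand) and HIST1H3E (chr6:26225596-26225611, plus strand) lie 41, 33 and 30 bases after theirs. In HIST1H2BC it is at chr6:26123472-26123487 on the minus strand and in HIST1H2AG at chr6:27133515-27133530 on the plus strand. HIST1H2BD has both kinds of model: 1 of its 2 coding transcripts holds the stem-loop and the other does not. The same mix was found in HIST1H2BC (1 of 2), HIST2H2BF (1 of 2), HIST1H2AC (2 of 3) and HIST1H2BN (2 of 4).

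How far a model runs past the stop codon went with whether a gene could be tested. These are not independent: being tested depends on counts over the whole model, and a longer model can gather more from the same RNA. In 25 genes at least 1 model runs 200 or more bases past the stop codon, 20 of these have a poly-A signal (AATAAA or ATTAAA) in the last 50 bases of a transcript, and 19 of the 25 had enough counts to be tested. In 35 genes the model ends at the stop codon, and 3 of them could be tested, HIST1H1C, HIST1H2BK and HIST2H2AC. For these 3 genes the table counts the coding part alone, with 642 bases of model for HIST1H1C, 381 for HIST1H2BK and 390 for HIST2H2AC. Of the other 11 genes, with shorter stretches, 3 were tested.

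Promoters are shown because H2A and H2B genes often lie head to head around one short stretch of DNA. Among the 71 genes 12 head-to-head pairs start less than 500 bases apart. HIST1H2BO belongs to 2 of them, once with HIST1H2AM and once with HIST1H3J, the only pair here that is not an H2A with an H2B gene. The HIST1H3J model overlaps HIST1H2AM on the same strand, and the region of the HIST1H2AM pair lies within that of the HIST1H3J pair. RefSeq (GRCh38.p14) holds a 300-base start region for 61 of the 71 genes. The octamer ATTTGCAT, the binding sequence of the factor POU2F1, was found on either strand in 21 of 61 (34.4%) and in 1.77% of 35116 RefSeq promoters. It was in 11 of 16 H2A and 9 of 13 H2B promoters, in 1 of 13 H3 promoters, and in none of the 6 H1 and 13 H4 promoters. The H3 match is not a separate one: RefSeq gives HIST1H3D the same start region as HIST1H2AD (chr6:26199244-26199543). The gene model of HIST1H3D (chr6:26196840-26197250) lies outside this region. No other H3 promoter held the octamer. Among the 61 promoters the shared region is counted for both genes, for each motif. CCAAT was in 51 of 61 (83.6%, against 34.6% of all), in every H1, H2A, H2B and H3 promoter and in 3 of 13 H4 promoters. TATAAA was in 41 of 61 (67.2%, against 11.5%). A match describes the letters and is not a measured site. The first stretch below lies between the gene models of HIST1H2BC and HIST1H2AC (chr6:26123927-26124144). The second lies between the RefSeq starts of HIST2H2BE and HIST2H2AC (chr1:149886683-149886917), within the 322 bases between their gene models. The third holds the bases before the RefSeq start of HIST1H2BK (chr6:27146859-27147108). They are printed on the strand of the gene named, with all 3 motifs in capitals in either orientation, also where they overlap.
HIST1H2AC (plus strand): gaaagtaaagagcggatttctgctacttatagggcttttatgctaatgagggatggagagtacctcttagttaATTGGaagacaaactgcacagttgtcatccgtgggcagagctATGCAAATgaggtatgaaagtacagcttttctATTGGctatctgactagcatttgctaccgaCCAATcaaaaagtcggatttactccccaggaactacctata
HIST2H2AC (plus strand): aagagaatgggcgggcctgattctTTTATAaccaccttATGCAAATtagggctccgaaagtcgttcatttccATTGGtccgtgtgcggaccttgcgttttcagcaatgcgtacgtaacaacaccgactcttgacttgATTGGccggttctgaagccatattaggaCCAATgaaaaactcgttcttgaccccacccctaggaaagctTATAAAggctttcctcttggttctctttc
HIST1H2BK (minus strand): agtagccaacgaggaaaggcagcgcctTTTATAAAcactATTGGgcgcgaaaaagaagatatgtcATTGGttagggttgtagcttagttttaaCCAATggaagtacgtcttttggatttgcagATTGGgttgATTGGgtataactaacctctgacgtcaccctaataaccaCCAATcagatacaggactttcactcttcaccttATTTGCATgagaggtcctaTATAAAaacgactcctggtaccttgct
Each of the 3 stretches holds the octamer once. The HIST1H2AC stretch ends within a TATAAA, which is whole in the 300-base region of that gene. CCAAT occurs 3 times in each of the first 2 stretches and 6 times in that of HIST1H2BK. The HIST1H2BK stretch is also part of a shared region, the 330 bases between HIST1H2BK and HIST1H2AH.

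Total counts ran from 16225691 to 22246755 per library, and a count of 0 in a library allows up to 0.135 to 0.191 CPM (counts scaled to the library total), taken as 3 counts, for counting error only. Each siRNA group was low in its own target. ATF3 was at 40.4 to 43.0 CPM in the control libraries and at 11.5 to 12.5 with ATF3 siRNA, APOE at 2.78 to 3.58 and 0.105 to 0.274 with APOE siRNA, and CXCL14 at 0.364 to 0.681 and 0 to 0.0544 with CXCL14 siRNA. With APOE siRNA, CXCL14 stood at 4.27 to 12.3 CPM. With CXCL14 siRNA, ATF3 and APOE were both higher than in the control at an edgeR adjusted p under 0.05. All 8 keratinocyte markers were tested, with 19040 to 38350 summed CPM. Markers of other cell types were low over the 12 libraries: 14.6 to 87.9 summed CPM for 8 fibroblast genes, 0.980 to 6.25 for 7 immune genes with PTPRC, CD3E and LYZ at 0, 3.06 to 6.75 for 7 melanocyte genes with TYR at 0, and 0.486 to 1.76 for 6 endothelial genes. Some of these sums moved with the groups. The keratinocyte sum was 26340 to 29230 in the control, 35640 to 38350 with APOE siRNA and 19040 to 19800 with CXCL14 siRNA. The fibroblast sum, with 2 of 8 genes tested, was highest with APOE siRNA (74.2 to 87.9) and lowest with CXCL14 siRNA (14.6 to 17.9), and so was the immune sum (5.74 to 6.25 and 0.980 to 1.48). The melanocyte sum was highest with CXCL14 siRNA (6.59 to 6.75). Their part in the results below was not tested.

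Histone transcripts took 0.00895 to 0.0239% of the counts of a library. Of the 71 genes, 25 had enough counts to be tested, 34 had counts but too few (at most 63 over the 12 libraries together), and 12 had no count in any library. By class, 2 of 6 H1, 6 of 17 H2A, 11 of 18 H2B, 2 of 15 H3 and 4 of 15 H4 genes could be tested. The 6 genes HIST1H2BK, HIST1H2AC, HIST2H2BE, HIST1H1C, HIST3H2A and HIST1H2BD held 76.2% of all histone counts. Per length, as the mean FPKM (fragment counts scaled by gene length and library size) the authors deposited, HIST1H2BK was highest in the control libraries at 49.8 ± 0.693 (SD, n = 3), followed by HIST1H1C at 17.2 ± 1.78 and HIST1H2AC at 11.1 ± 1.109. HIST3H2A (9.84 ± 0.825), HIST1H2BD (8.26 ± 1.01) and HIST2H2BE (7.99 ± 1.29) came next. The control libraries of HIST1H2AC, HIST3H2A, HIST1H2BD and HIST2H2BE overlapped from each gene to the next in this order, as did those of HIST1H4I (3.86 ± 0.669) and HIST1H2BC (3.09 ± 0.896). The order per length depends on the gene model: HIST1H2BK and HIST1H2AC had 945 and 920 summed control counts, over 381 and 1668 bases. H2B transcripts made up 50.2% of the histone counts of the control group, H2A 28.4%, H1 10.5%, H4 8.19% and H3 2.77%.

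The summed level of the 71 genes separated the 4 groups. In TMM-scaled CPM it was 111.3, 111.6 and 112.4 in the control libraries, 91.7, 93.9 and 96.8 with ATF3 siRNA, 163.4, 149.4 and 155.0 in the APOE group, and 223.5, 227.8 and 230.9 in the CXCL14 group. No library of a group overlapped with any library of another: ATF3 siRNA lay below the control, and APOE and CXCL14 siRNA lay above it. The group means were 0.842, 1.40 and 2.03 times the control mean of 111.8 ± 0.561 (SD, n = 3). In bulk RNA, a change in the number of cells that make a transcript and a change in its amount per cell cannot be told apart. The order control, APOE siRNA, CXCL14 siRNA was found in each class, as the plot of summed levels shows, though the H3 sums of the last 2 groups overlapped (5.48 to 7.27 with APOE siRNA and 6.50 to 8.90 with CXCL14 siRNA). With CXCL14 siRNA, HIST1H2AC and HIST1H2BK together made 60.5% of the gain of 115.6 CPM, and the other 69 genes stood at 119.5 against 73.8 CPM in the control, a ratio of 1.62. With APOE siRNA the gain of 44.2 CPM was spread more widely, and its first 2 genes, HIST1H1C and HIST1H2BK, made 40.2% of it. The 46 genes too low to test summed to 2.87 ± 0.496 CPM in the control group, 3.07 ± 0.368 with ATF3 siRNA, 3.48 ± 0.668 with APOE siRNA and 4.10 ± 0.552 with CXCL14 siRNA (SD, n = 3).

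**Figure D1:**
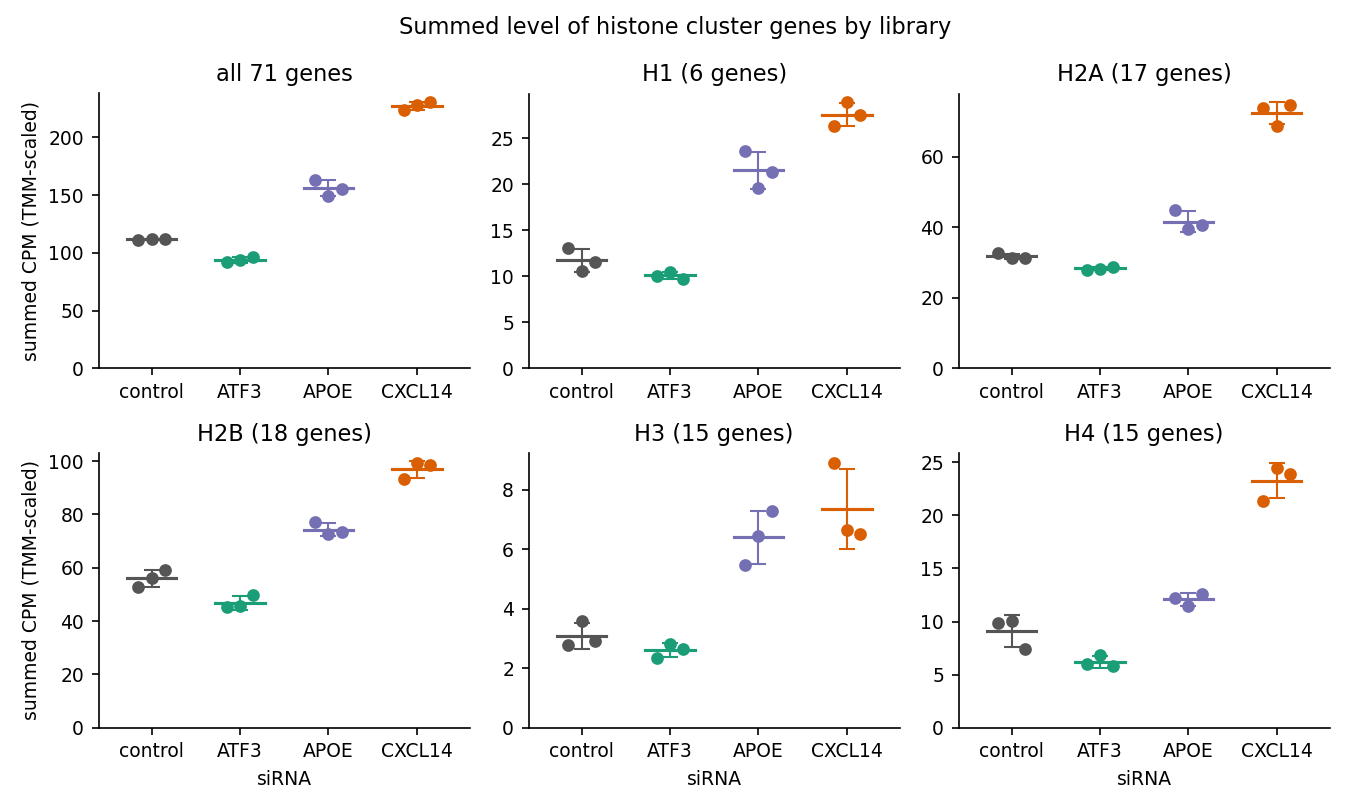
Summed TMM-scaled CPM (vertical axis) of all 71 histone cluster genes and of each protein class in the 4 siRNA groups (horizontal axis). Points are libraries, the line is the mean and the bar 1 SD of 3 libraries. The sums of all genes run from 91.7 to 96.8 with ATF3 siRNA, from 111.3 to 112.4 in the control, from 149.4 to 163.4 with APOE siRNA and from 223.5 to 230.9 with CXCL14 siRNA.

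CXCL14 siRNA went with the largest histone difference from the control. Of the 25 tested genes, 12 rose and 2 fell by edgeR's quasi-likelihood test at an adjusted p under 0.05. Over all 14920 tested genes 27.4% rose and 28.4% fell in this comparison, so the histone calls were mostly in one direction where those of all genes were even. The share of histone genes called in either direction, 14 of 25, was close to that of all genes. The median log2 fold change of the 25 genes was 0.52, against 0.01 over all genes. Each class held genes that rose: HIST1H1C among the linker histones, HIST1H2AC among H2A, HIST1H2BK and HIST1H2BN among H2B, both tested H3 genes and 3 of 4 tested H4 genes. The 2 that fell were HIST2H2AC and HIST1H2BH. Calls of 6 genes (HIST1H2AI, HIST1H2BH, HIST2H2AC, HIST2H2BE, HIST3H2A and HIST4H4) were lost when 1 of the 6 libraries was left out, with adjusted p of 0.0705 to 0.160 in the least favourable fit. HIST2H2AC was lost without control replicate 2 and HIST1H2BH without control replicate 1 or CXCL14 siRNA replicate 2, which leaves 1 gene called lower in each of these fits.

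With APOE siRNA, 10 of the 25 tested histone genes rose and 1 fell, where 22.3% of all tested genes rose and 22.5% fell. The median log2 fold change was 0.45, against 0.01 over all genes. HIST1H1C, HIST1H2BD and HIST1H2BK rose with the smallest adjusted p, both H3 genes rose, and HIST2H2BF fell. Without APOE siRNA replicate 1 the count of genes called higher went from 10 to 6, and HIST1H2AC, HIST1H2BJ, HIST1H4H and HIST3H2A were lost in that fit. HIST2H2BF was lost without control replicate 2 or without APOE siRNA replicate 1 or 3 (adjusted p up to 0.0845, edgeR).

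ATF3 siRNA went with small differences, mostly downward. Here 1 of 25 tested genes rose and 4 fell, against 11.2% of all tested genes that rose and 9.14% that fell. The median log2 fold change of the histone genes was -0.22, against 0.00 over all genes, and 7 of the 25 values were above 0. The genes that fell were HIST1H2AC, HIST1H4I, HIST1H2BG and HIST1H2BC, and the gene that rose was HIST1H2BH, at an edgeR adjusted p of 0.0499. HIST1H2AC kept its call in every alternative fit that was run. The other 4 calls were each lost without at least 1 library (adjusted p up to 0.0972 to 0.175): the count called lower was 1 without control replicate 2 and 2 without control replicate 1 or ATF3 siRNA replicate 1, and HIST1H2BH was not called without control replicate 2 or 3 or without ATF3 siRNA replicate 1 or 2. Without a low-count filter 7 genes were called lower. The 3 comparisons share the control libraries.

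**Figure D2:**
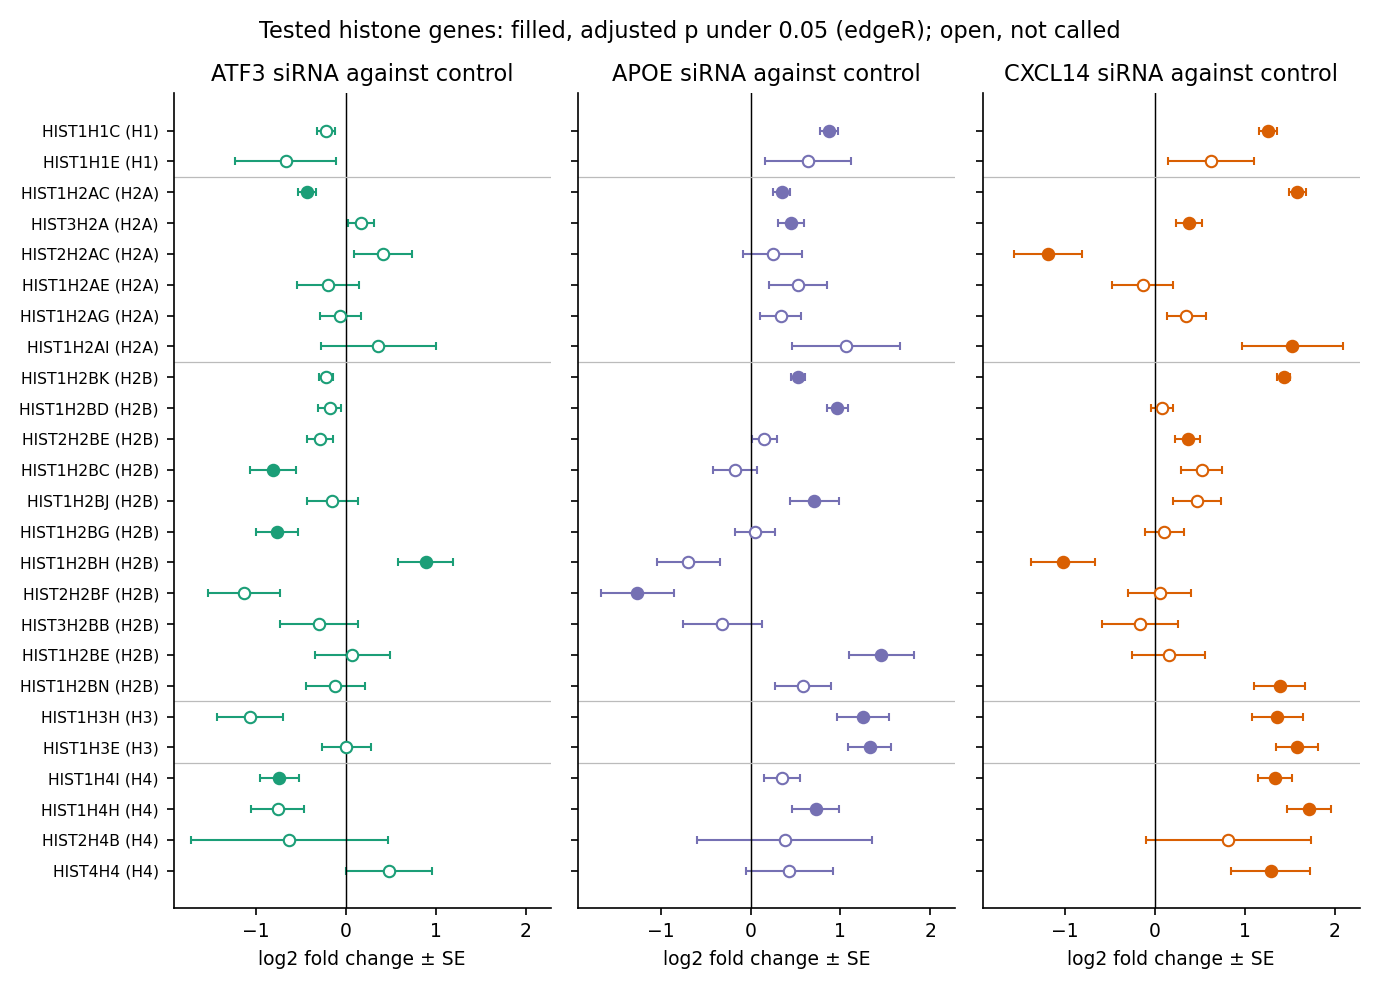
Log2 fold change against the control (horizontal axis, bar: SE from edgeR) of the 25 tested histone genes, ordered by class and then by control FPKM, 1 panel per siRNA. Filled points have an adjusted p under 0.05; 12 of the 14 filled points with CXCL14 siRNA and 10 of the 11 with APOE siRNA lie to the right of 0, and 4 of the 5 with ATF3 siRNA lie to the left.

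Among the linker histones, which sit on the DNA between nucleosomes, HIST1H1C (ENSG00000187837, chr6:26055787-26056428, minus strand) encodes H1.2 and was the most abundant. Its CPM were 12.3, 9.96 and 11.3 in the control libraries, 9.62, 9.89 and 9.18 with ATF3 siRNA, 22.0, 18.8 and 20.6 in the APOE group and 25.3, 28.03 and 26.6 in the CXCL14 group. All libraries of the APOE and CXCL14 groups lay above all control libraries, and the CXCL14 group lay above the APOE group. HIST1H1C rose by 0.87 ± 0.10 (log2 fold change ± SE) with APOE siRNA (edgeR adjusted p = 2.90e-06) and by 1.25 ± 0.10 with CXCL14 siRNA (1.82e-08), and was not called with ATF3 siRNA (-0.22 ± 0.10, 0.151). The second H1 gene tested, HIST1H1E, which encodes H1.4, was low (0.486 ± 0.215 CPM in the control, SD, n = 3) and was not called against the control.

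HIST1H2AC (ENSG00000180573, chr6:26124145-26139116, plus strand), a core H2A gene, carried the largest gain in CPM. It stood at 20.7, 18.2 and 17.2 CPM in the control, 12.8, 14.9 and 14.0 with ATF3 siRNA, 26.4, 20.9 and 24.0 in the APOE group and 56.8, 55.0 and 56.3 in the CXCL14 group. The 4 groups did not overlap, and the CXCL14 libraries lay far above the rest. HIST1H2AC fell with ATF3 siRNA (-0.43 ± 0.10, edgeR adjusted p = 0.00705), rose slightly with APOE siRNA (0.35 ± 0.10, 0.00914) and rose about 3-fold with CXCL14 siRNA (1.58 ± 0.10, 9.12e-10). The APOE call was lost without control replicate 3 or APOE siRNA replicate 1 (adjusted p up to 0.0591). HIST3H2A, an H2A gene of the small cluster on chromosome 1, moved less. Its CPM were 8.03, 9.23 and 9.47 in the control, 9.94, 8.99 and 11.1 with ATF3 siRNA, 12.7, 12.7 and 10.96 in the APOE group and 12.5, 8.98 and 13.2 in the CXCL14 group. Its call with APOE siRNA (0.45 ± 0.14, edgeR adjusted p = 0.0176) rests on groups that do not overlap, but was lost without control replicate 1 or APOE siRNA replicate 1 or 2 (adjusted p up to 0.0763). The call with CXCL14 siRNA (0.38 ± 0.14, edgeR adjusted p = 0.0327) holds 1 library inside the control range, and was lost without control replicate 1 or 2 or CXCL14 siRNA replicate 1 or 3 (adjusted p up to 0.160).

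HIST2H2AC (chr1:149886975-149887364, plus strand) went the other way from HIST1H2AC with CXCL14 siRNA. It was at 0.543, 1.09 and 0.929 CPM in the control, 1.15, 1.12 and 1.15 with ATF3 siRNA, 1.00, 1.31 and 0.701 in the APOE group and 0.369, 0.327 and 0.406 in the CXCL14 group. The CXCL14 libraries were the lowest 3 of the 12. HIST2H2AC fell by 1.20 ± 0.38 on the log2 scale (edgeR adjusted p = 0.0133), from 42 summed counts to 22. Of its 100-base windows 17.2% also occur in HIST2H2AA3 or HIST2H2AA4, so reads there could be shared. HIST1H2AI rose with CXCL14 siRNA (1.53 ± 0.56, edgeR adjusted p = 0.0295) on 16 control counts, shares 57.7% of its windows with HIST1H2AJ and lost its call without control replicate 1 or 3 or CXCL14 siRNA replicate 2 or 3 (adjusted p up to 0.122). The call of HIST2H2AC was lost without control replicate 2 (adjusted p = 0.0705), and HIST1H2AE and HIST1H2AG were not called in any comparison with the control.

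Of the H2B genes 11 were tested, and their differences from the control ran in both directions. HIST1H2BK (ENSG00000197903, chr6:27146418-27146798, minus strand) stood at 19.3, 19.4 and 19.01 CPM in the control, 16.8, 15.7 and 16.9 with ATF3 siRNA, 28.9, 26.1 and 28.1 in the APOE group and 49.7, 53.8 and 52.2 in the CXCL14 group. The 4 groups did not overlap. HIST1H2BK rose with APOE siRNA (0.53 ± 0.07, edgeR adjusted p = 2.54e-05) and with CXCL14 siRNA (1.43 ± 0.07, 1.31e-10). With ATF3 siRNA all 3 libraries lay below the control but the difference was not called (-0.22 ± 0.08, 0.0522). Of the windows of HIST1H2BK 28.4% also occur in H2BFS.

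HIST1H2BD (ENSG00000158373, chr6:26158146-26171349, plus strand) was highest with APOE siRNA. Its CPM were 6.28, 8.02 and 7.55 in the control, 6.58, 6.63 and 6.04 with ATF3 siRNA, 14.97, 14.7 and 13 in the APOE group and 7.58, 8.38 and 7.09 in the CXCL14 group. The APOE libraries lay above the other 9, and the CXCL14 libraries lay within or near the control range. HIST1H2BD rose by 0.97 ± 0.12 with APOE siRNA (edgeR adjusted p = 7.09e-06) and was not called with CXCL14 siRNA (0.08 ± 0.12, 0.631). The direct comparison of APOE with CXCL14 siRNA gave 0.89 ± 0.12 (7.01e-06). HIST1H2BE was also highest with APOE siRNA, at a lower level: 0.423, 0.486 and 0.310 CPM in the control, 0.460, 0.449 and 0.363 with ATF3 siRNA, 1.37, 1.15 and 0.829 in the APOE group and 0.316, 0.435 and 0.587 in the CXCL14 group. HIST1H2BE rose with APOE siRNA (1.45 ± 0.36, edgeR adjusted p = 0.00388) and differed between APOE and CXCL14 siRNA (1.30 ± 0.34, 0.00399). Of its windows 25.6% occur in other genes, and its model overlaps a gene on the opposite strand. Whether the reads were counted by strand is unstated, and without it reads of 2 overlapping genes cannot be told apart.

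HIST2H2BE, an H2B gene known for a long polyadenylated transcript, was at 15.6, 16.5 and 21.1 CPM in the control, 12.2, 13.5 and 18.2 with ATF3 siRNA, 20.8, 19.5 and 18.9 in the APOE group and 22.8, 21.1 and 24.5 in the CXCL14 group. Its values overlapped between the control and each of the ATF3 and APOE groups, and the call with CXCL14 siRNA (0.36 ± 0.14, edgeR adjusted p = 0.0327) was lost without control replicate 1 or 2 and without CXCL14 siRNA replicate 1 or 3 (up to 0.140). HIST1H2BC stood at 1.75, 2.86 and 3.22 CPM in the control, 1.52, 1.18 and 1.75 with ATF3 siRNA, 2.32, 1.86 and 2.81 in the APOE group and 3.37, 3.65 and 4.16 in the CXCL14 group. It fell with ATF3 siRNA (-0.81 ± 0.26, edgeR adjusted p = 0.0352), where the highest ATF3 library reached the lowest control library, and did not pass with CXCL14 siRNA (0.52 ± 0.23, 0.0663) although those libraries lay above the control. HIST1H2BG was at 2.66, 2.55 and 3.16 CPM in the control and 1.61, 1.97 and 1.33 with ATF3 siRNA (-0.76 ± 0.23, edgeR adjusted p = 0.0302). With APOE siRNA it was at 2.64, 2.79 and 3.25 and with CXCL14 siRNA at 3.42, 3.43 and 2.17, both across the control range. With ATF3 siRNA, HIST1H2BC lost its call without control replicate 2 or 3 or ATF3 siRNA replicate 1 or 2 (adjusted p up to 0.127) or with only the 2 groups fitted, and HIST1H2BG lost it without any 1 control library or ATF3 siRNA replicate 1 or 3 (up to 0.0972).

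HIST1H2BH and HIST2H2BF are the H2B genes with a fall against the control in the APOE or CXCL14 group. HIST1H2BH (chr6:26251651-26253710, plus strand) had 1.69, 0.911 and 0.991 CPM in the control, 2.53, 2.53 and 1.57 with ATF3 siRNA, 0.527, 0.875 and 0.829 in the APOE group and 0.632, 0.435 and 0.677 in the CXCL14 group. The ATF3 group was the highest, with 1 library inside the control range, and the CXCL14 group lay below the control (-1.02 ± 0.36, edgeR adjusted p = 0.0234, up to 0.152 without 1 library). HIST1H2BH was 3.76 times as high with ATF3 siRNA as with CXCL14 siRNA (1.91 ± 0.33, edgeR adjusted p = 1.26e-04). HIST2H2BF (chr1:149782689-149812373, minus strand) was at 1.15, 1.46 and 0.929 CPM in the control, 0.552, 0.618 and 0.423 with ATF3 siRNA, 0.422, 0.766 and 0.255 in the APOE group and 0.948, 1.80 and 0.948 in the CXCL14 group. It fell with APOE siRNA (-1.26 ± 0.41, edgeR adjusted p = 0.0200) and did not pass with ATF3 siRNA (-1.13 ± 0.40, 0.0571), and its model overlaps FCGR1A on the opposite strand. Of its windows 17.6% also occur in other genes, HIST2H2BE among them. Of the other H2B genes, HIST1H2BN rose with CXCL14 siRNA (1.39 ± 0.29, edgeR adjusted p = 6.14e-04), HIST1H2BJ rose with APOE siRNA (0.71 ± 0.27, 0.0419), and HIST3H2BB was not called. The call of HIST1H2BJ was lost without control replicate 2 or 3 or APOE siRNA replicate 1 or 3 (adjusted p up to 0.196), with library size alone, with only the 2 groups fitted, and with DESeq2. The model of HIST1H2BN holds 5477 bases, reaches into HIST1H2AL on the same strand and overlaps HIST1H2AK on the other.

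**Figure D3:**
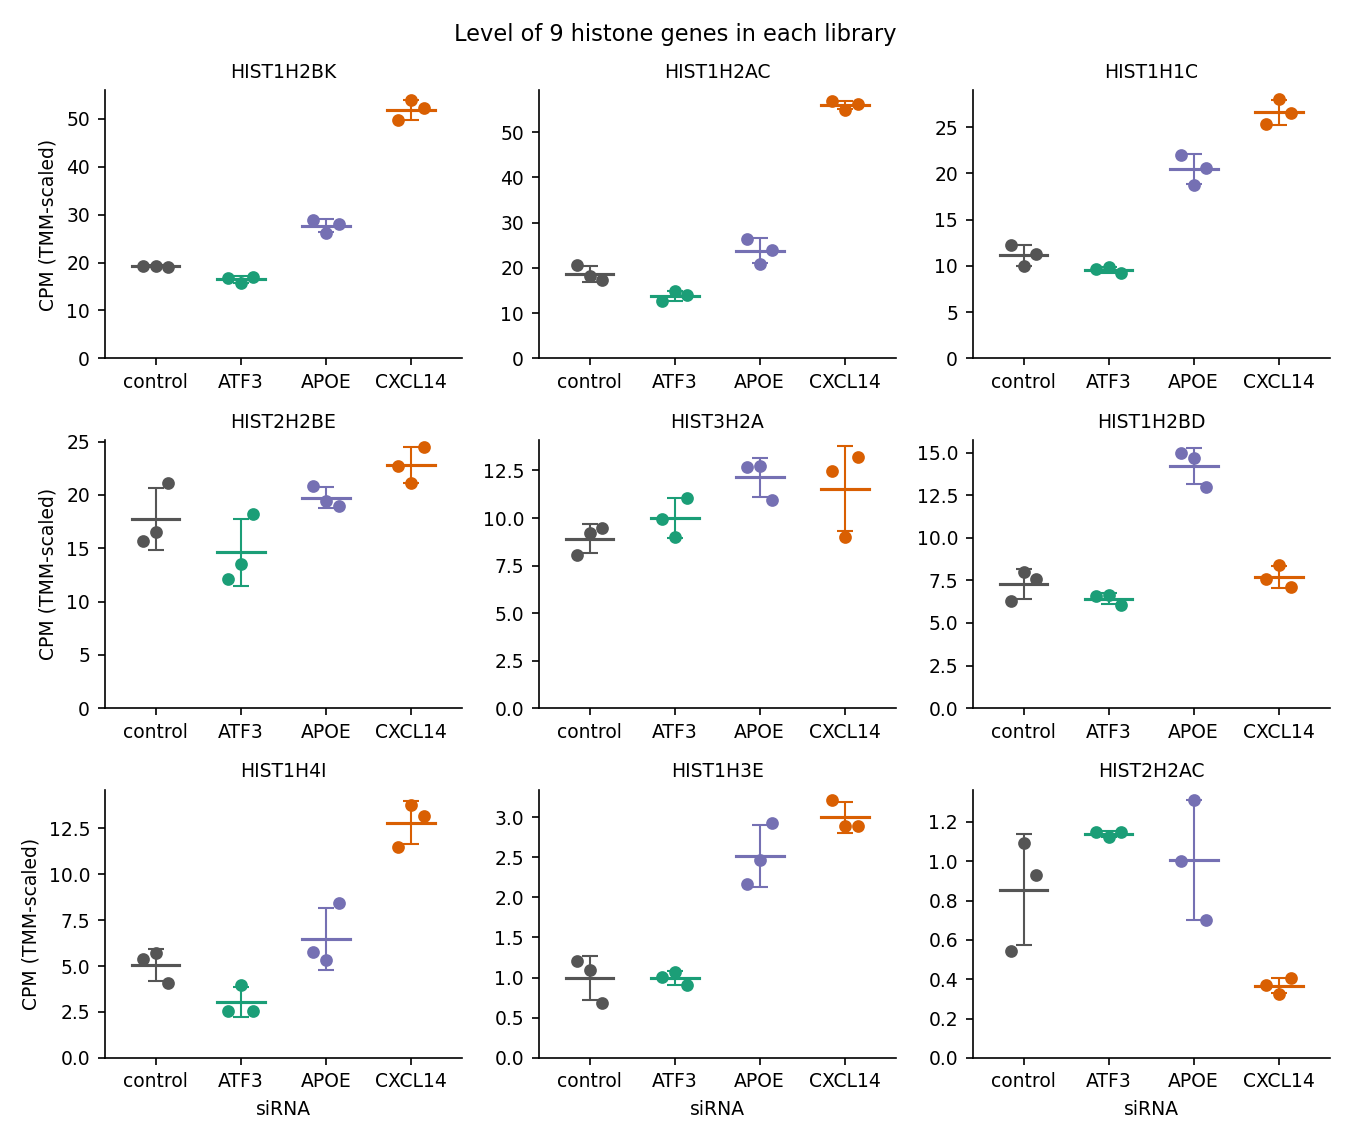
TMM-scaled CPM (vertical axes, each from 0) of 9 histone genes in the 12 libraries by siRNA group (horizontal axes). Points are libraries, lines are means and bars 1 SD of 3. HIST1H2AC reaches 55.0 to 56.8 with CXCL14 siRNA, HIST1H2BD is highest with APOE siRNA at 13 to 14.97, and HIST2H2AC is lowest with CXCL14 siRNA at 0.327 to 0.406.

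Both tested H3 genes encode the core H3 protein of the nucleosome. HIST1H3E (chr6:26224199-26227473, plus strand) was at 1.21, 1.09 and 0.681 CPM in the control, 1.01, 1.07 and 0.906 with ATF3 siRNA, 2.16, 2.46 and 2.93 in the APOE group and 3.21, 2.88 and 2.89 in the CXCL14 group. The APOE and CXCL14 libraries lay above the other 6, and HIST1H3E rose with both (1.33 ± 0.24, edgeR adjusted p = 3.28e-04, and 1.58 ± 0.24, 2.83e-05). HIST1H3H was at 0.906, 1.46 and 1.18 CPM in the control, 0.276, 0.674 and 0.786 with ATF3 siRNA, 2.42, 2.57 and 3.51 in the APOE group and 3.69, 2.94 and 2.53 in the CXCL14 group. It rose with APOE (1.25 ± 0.29, edgeR adjusted p = 0.00252) and CXCL14 siRNA (1.36 ± 0.29, 7.65e-04). The ATF3 libraries of HIST1H3H were the lowest 3, but the difference from the control did not pass (-1.07 ± 0.37, 0.0522).

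Of the H4 genes, most of which encode one and the same core histone, HIST1H4I (chr6:27138588-27139881, plus strand) was the most abundant per length. Its CPM were 5.38, 5.71 and 4.09 in the control, 2.58, 3.99 and 2.54 with ATF3 siRNA, 5.74, 5.31 and 8.41 in the APOE group and 11.5, 13.8 and 13.2 in the CXCL14 group. The ATF3 group lay below the control (-0.74 ± 0.22, edgeR adjusted p = 0.0248), the APOE group overlapped with it (0.35 ± 0.20, 0.174) and the CXCL14 group lay above all other libraries (1.34 ± 0.19, 1.62e-05). HIST1H4H was at 2.78, 2.004 and 1.49 CPM in the control, 1.79, 1.01 and 0.786 with ATF3 siRNA, 4.06, 3.17 and 3.12 in the APOE group and 7.22, 7.51 and 5.92 in the CXCL14 group. HIST1H4H rose with APOE siRNA (0.72 ± 0.26, edgeR adjusted p = 0.0331) and more than 3-fold with CXCL14 siRNA (1.71 ± 0.24, 1.80e-05), and the 3 groups did not overlap. The call of HIST1H4I with ATF3 siRNA was lost without control replicate 1 or 2 or ATF3 siRNA replicate 1 or 3 (adjusted p up to 0.0985), and that of HIST1H4H with APOE siRNA without control replicate 2 or 3 or APOE siRNA replicate 1 or 2 (up to 0.151) or with library size alone. HIST4H4, the lone cluster gene on chromosome 12, rose with CXCL14 siRNA (1.29 ± 0.44, edgeR adjusted p = 0.0199), a call lost without control replicate 2 or 3 or CXCL14 siRNA replicate 2 (up to 0.120). HIST2H4B, which shares 97.1% of its windows with other genes, was not called: its counts ran from 0 to 51 over the 12 libraries, with 51 in CXCL14 siRNA replicate 3 and 0 in APOE siRNA replicate 3.

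The 3 siRNAs were also compared with each other. ATF3 and CXCL14 siRNA differed in 15 of the 25 tested histone genes, where 53.7% of all genes differed: 13 were lower with ATF3 siRNA, and HIST1H2BH and HIST2H2AC were higher. The smallest adjusted p were those of HIST1H2BK (-1.65 ± 0.07, edgeR adjusted p = 3.73e-11), HIST1H2AC (-2.02 ± 0.10, 9.93e-11) and HIST1H1C (-1.48 ± 0.10, 3.15e-09). ATF3 and APOE siRNA differed in 13 genes, where 38.2% of all genes differed, with 12 lower with ATF3 siRNA. HIST1H1C (-1.09 ± 0.10, edgeR adjusted p = 3.41e-07), HIST1H2BK (-0.75 ± 0.07, 8.54e-07) and HIST1H2BD (-1.15 ± 0.12, 1.45e-06) led that comparison. APOE and CXCL14 siRNA differed in 11 genes, where 55.5% of all genes differed, with 8 lower and 3 higher with APOE siRNA. HIST1H2AC (-1.24 ± 0.09, edgeR adjusted p = 1.12e-08) and HIST1H2BK (-0.91 ± 0.07, 1.51e-08) were lower with APOE siRNA, and HIST1H2BD, HIST1H2BE and HIST2H2AC (1.44 ± 0.36, 0.00305) were higher. Over all 4 groups in 1 test, 18 of the 25 histone genes differed, and 74.1% of all tested genes did. The shares of histone genes called were 60% with ATF3 against CXCL14 siRNA, 52% with ATF3 against APOE siRNA and 44% with APOE against CXCL14 siRNA. The differences of these shares from those of all genes were not tested.

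In the head-to-head pairs the partners often stood at very different levels. HIST1H2BK had 945 summed counts in the control group and 3089 with CXCL14 siRNA, while its partner HIST1H2AH, 330 bases away, had 0 and 3. HIST2H2BE and HIST2H2AC, 322 bases apart, had 7.99 and 2.17 FPKM in the control and 10.3 and 0.932 FPKM with CXCL14 siRNA, where the first rose and the second fell. Both calls were lost in fits without 1 library (edgeR adjusted p up to 0.140 for HIST2H2BE and 0.0705 for HIST2H2AC). HIST1H2AC and HIST1H2BC, which share the 218 bases printed above, had 11.1 and 3.09 FPKM in the control and 33.2 and 4.42 FPKM with CXCL14 siRNA. HIST3H2A stood at 9.84 FPKM in the control and HIST3H2BB at 0.306. The pairs HIST1H2BG with HIST1H2AE (1.80 and 1.66 FPKM) and HIST1H2BJ with HIST1H2AG (1.88 and 0.661 FPKM) were closer in FPKM in the control. By summed control counts the first pair stood at 137 and 42 and the second at 89 and 74. FPKM divides by model length, which was 1534 and 509 bases in the first pair and 950 and 2250 in the second. Both partners could be tested in 5 of the 12 pairs, 1 partner in 2, and neither in 5.

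**Figure D4:**
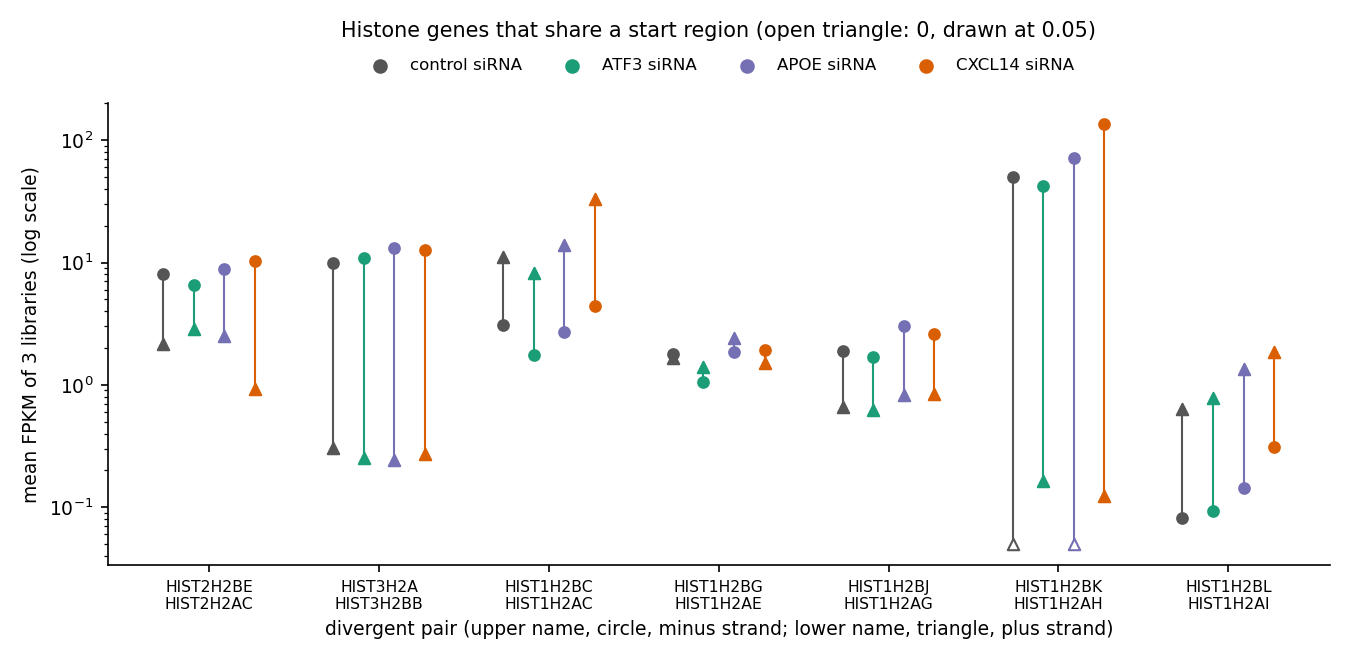
Mean FPKM of 3 libraries (vertical axis, log scale) of both genes in the 7 head-to-head pairs with at least 1 tested gene, in the 4 siRNA groups (colours). Circles are the minus-strand genes and triangles the plus-strand genes, and open triangles stand for 0; HIST1H2BK lies at 42.5 to 134.8 while HIST1H2AH does not pass 0.164.

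Of 6 genes picked as known sources of polyadenylated histone transcripts (HIST1H1C, HIST1H2AC, HIST1H2BC, HIST1H2BD, HIST1H2BK and HIST2H2BE), 4 rose with APOE siRNA, 4 rose with CXCL14 siRNA and 2 fell with ATF3 siRNA, with medians of 0.44, 0.89 and -0.26. Of all tested genes 22.3% rose with APOE siRNA, 27.4% rose with CXCL14 siRNA and 9.14% fell with ATF3 siRNA. Among these calls, HIST1H2AC with APOE siRNA, HIST2H2BE with CXCL14 siRNA and HIST1H2BC with ATF3 siRNA are lost without 1 library, with adjusted p of up to 0.0591, 0.140 and 0.127. Of 4 genes known from testis, HIST1H2AA, HIST1H2BA and HIST3H3 had no count and HIST1H1T had 8 counts over the 12 libraries. Of 7 chromosome 1 genes listed as duplicated, HIST2H2AA3, HIST2H2AA4, HIST2H3A, HIST2H3C, HIST2H3D and HIST2H4A were not tested. They had 58, 50, 9, 1, 43 and 37 counts in all, in this order. HIST2H3D shares 51.3% of its windows with other genes. The rest of the 7, HIST2H4B among them, are near-identical copies that share 94.9 to 100%, so the counts of these genes are uncertain.

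Genes outside the clusters that encode or handle histones were read in lists. Their counts stand beside the shares of all tested genes, which were 11.2% higher and 9.14% lower with ATF3 siRNA, 22.3% higher and 22.5% lower with APOE siRNA, and 27.4% higher and 28.4% lower with CXCL14 siRNA. The replacement histones are encoded outside the main clusters and most come from ordinary polyadenylated transcripts, while H2AFX is known to give both a stem-loop and a polyadenylated transcript. With CXCL14 siRNA 7 of 11 tested fell and the rest were not called (median -0.48): CENPA, the centromeric H3, fell by 1.74 ± 0.13 on the log2 scale (edgeR adjusted p = 8.52e-09) and H2AFX, the H2A of DNA damage, by 1.26 ± 0.11 (5.21e-08). With APOE siRNA 4 of 11 rose (median 0.13), among them H3F3A (0.53 ± 0.07, edgeR adjusted p = 2.09e-05) and H2AFJ (0.51 ± 0.10, 4.90e-04). With ATF3 siRNA H2AFJ rose and H3F3B and H2AFY2 fell.

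Of 21 genes for histone transcript processing and decay, 7 fell and 4 rose with CXCL14 siRNA, 9 fell and 2 rose with APOE siRNA, and 3 fell with ATF3 siRNA. With CXCL14 siRNA both counts lie near the 28.4% and 27.4% of all tested genes that fell and rose. SLBP, which binds the stem-loops printed above, was at 74.0 CPM in the control and fell with CXCL14 siRNA (-0.78 ± 0.12, edgeR adjusted p = 3.89e-05) and with APOE siRNA (-0.33 ± 0.12, 0.0324). CASP8AP2, a protein of the histone locus body, fell with CXCL14 siRNA (-1.25 ± 0.17, 8.54e-06), as did ERI1, an exonuclease that trims histone transcripts (-0.79 ± 0.12, 4.81e-05). CSTF2, a cleavage factor subunit, fell with APOE siRNA (-0.73 ± 0.10, edgeR adjusted p = 1.84e-05). The medians of the list were -0.08 with ATF3 siRNA, -0.11 with APOE siRNA and -0.03 with CXCL14 siRNA, where those of all genes were 0.00, 0.01 and 0.01.

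Of 12 genes for histone transcription and its S-phase trigger, 9 fell and 1 rose with CXCL14 siRNA, 4 rose and 3 fell with APOE siRNA and 1 fell with ATF3 siRNA. CDK2, which with cyclin E activates NPAT, fell with CXCL14 siRNA (-1.35 ± 0.07, edgeR adjusted p = 2.33e-10), as did E2F1 (-1.60 ± 0.13, 3.73e-08). NPAT, the coactivator of histone genes, fell with each siRNA (-0.38 ± 0.10 with ATF3, -0.29 ± 0.10 with APOE and -0.39 ± 0.10 with CXCL14, adjusted p = 0.0146, 0.0286 and 0.00329). HINFP, the factor of H4 promoters, rose with APOE (0.48 ± 0.10, edgeR adjusted p = 0.00108) and CXCL14 siRNA (1.00 ± 0.10, 2.71e-07). Of 20 tested histone chaperones, 12 fell and 2 rose with CXCL14 siRNA and 6 fell and 3 rose with APOE siRNA. HJURP, the chaperone of CENPA, fell by 1.96 ± 0.12 with CXCL14 siRNA (edgeR adjusted p = 1.11e-09), and ASF1A, a chaperone of H3 and H4, rose by 1.10 ± 0.11 with APOE siRNA (8.18e-07). With ATF3 siRNA 0 of the 20 were called by edgeR and 0 by DESeq2, and 2 had an unadjusted p under 0.05.

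DNA replication genes were counted in the same way. With CXCL14 siRNA 37 of 40 replication genes fell and 2 rose, with a median of -0.93, among them RRM2 of nucleotide supply (-1.75 ± 0.07, edgeR adjusted p = 2.08e-11) and CDC6 of origin licensing (-1.81 ± 0.09, 1.68e-10). Their summed level was 2172 to 2277 CPM in the control libraries, 2074 to 2299 with ATF3 siRNA, 1912 to 2066 with APOE siRNA and 1188 to 1250 with CXCL14 siRNA. The CXCL14 libraries were the lowest of the 12 in replication transcripts and the highest in summed counts of the histone cluster genes. With APOE siRNA 16 replication genes fell and 5 rose (median -0.16), and with ATF3 siRNA 3 fell and 1 rose (median -0.04). Keratinocyte differentiation genes did not order the groups as the histones did: 25 of them summed to 613 to 708 CPM in the control, 1641 to 1981 with ATF3 siRNA, 1561 to 1938 with APOE siRNA and 471 to 497 with CXCL14 siRNA. Of the 21 tested, 17 rose with ATF3 siRNA, 19 rose with APOE siRNA, and 5 rose and 8 fell with CXCL14 siRNA. Whether replication, differentiation or the fraction of dividing cells had a part in the histone differences was not tested.

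**Figure D5:**
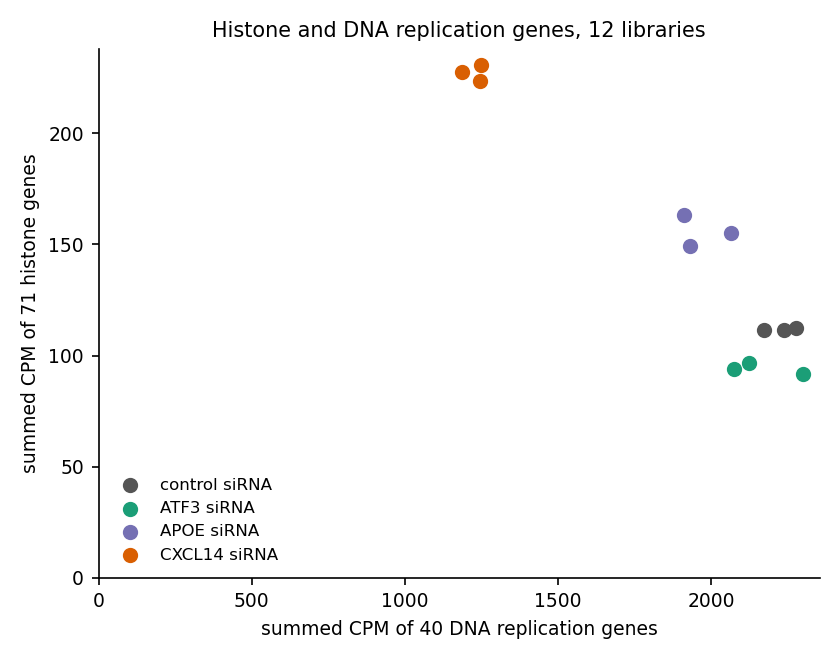
Summed TMM-scaled CPM of 71 histone cluster genes (vertical axis) against that of 40 DNA replication genes (horizontal axis) in the 12 libraries, coloured by siRNA group, both axes from 0. The 3 CXCL14 libraries lie apart at 1188 to 1250 replication CPM and 223.5 to 230.9 histone CPM.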

How the data were processed

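Poly-A-selected RNA of 12 libraries was analysed from 2 tables. The authors deposited raw counts per gene and FPKM per gene, made with HISAT2 2.0.5 and featureCounts 1.5.0-p3 on hg38 per the submitters' processing notes. The annotation and strand setting are not given in the sources used here. The deposited FPKM were checked to equal counts per gene length with 1 constant per library. Another deposited table, which repeats the FPKM and adds group means, was not used. Library columns were mapped to samples by target and replicate number, and 0 were left unmapped.

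Counts of all 58735 genes were filtered (filterByExpr), scaled by TMM and fitted with edgeR 4.0.16 (R 4.3.3, limma 3.58.1) by quasi-likelihood over 12 libraries with 1 term per group. Adjusted p-values are Benjamini-Hochberg values across 14920 genes, with calls below 0.05. SE is the log2 fold change over the root of F. CPM are TMM-scaled. The script was tested on simulated counts. As alternatives, scaling by size factors or by library totals, no low-count filter or a harder one, DESeq2 1.42.0, a replicate block, fits of only the 2 groups compared, and fits without each library were run.

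The histone genes, gene lists and comparisons were chosen with earlier results of these data known. Values per library are given for the 8 genes with the highest control FPKM, for called genes (up to 6 per direction against the control, 3 per direct comparison) and for up to 4 called genes per list, of which the text gives a part. The lists are replacement histones, histone transcript processing, histone transcription, histone chaperones, DNA replication, keratinocyte differentiation, known polyadenylated, testis and duplicated cluster genes, and markers of keratinocytes, fibroblasts, melanocytes, immune cells and endothelium. Stem-loops come from GENCODE 29 transcripts and promoters from RefSeq.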

Additional observations from a re-analysis of the deposited data

How the results depend on the processing

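The 10 counts of called histone genes were recomputed under the alternatives, which gave 135 values, of which 104 left the count within 1.5 times and 31 did not. With a harder low-count filter, which asks for a mean of 50 counts and for 1 CPM in 3 libraries, 8 histone genes were tested in place of 25. Then 0 rose with ATF3 siRNA, 6 rose and 0 fell with APOE siRNA, 7 rose and 0 fell with CXCL14 siRNA, and 7, 6, 6 and 8 were called for ATF3 against APOE siRNA, ATF3 against CXCL14 siRNA, APOE against CXCL14 siRNA and any of the 4 groups. Without a filter 59 were tested, 0 rose and 7 fell with ATF3 siRNA. The 1 gene called higher with ATF3 siRNA, HIST1H2BH, was lost (0 called) with DESeq2 size factors, library size alone, only the 2 groups compared and DESeq2. With only the 2 groups compared 1 gene fell with CXCL14 siRNA. Leaving out 1 library gave 0 to 1 genes higher and 1 to 4 lower with ATF3 siRNA, 6 to 9 higher and 0 to 1 lower with APOE siRNA, and 9 to 11 higher and 1 to 2 lower with CXCL14 siRNA. It gave 11 to 14, 13 to 16 and 9 to 11 for the 3 direct comparisons and 16 to 19 for any of the 4 groups. Where that leaves 2 libraries in a group, the spread is still shared by all groups.

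With the replicate block 8 histone genes fell with ATF3 siRNA in place of 4, and no other count moved by over 1.5 times (10 rose with APOE siRNA and 13 with CXCL14 siRNA). The numbers were not taken to pair the libraries: residuals of the 18 pairs with the same number correlated at -0.08 to 0.44, 12 of them over 0.1. For 11 of 12 libraries the mean correlation was still higher with libraries of their own number than with those of other numbers.

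Of the 69 calls of histone genes in the 6 comparisons, 47 held in all alternatives in which the gene was tested, 22 were lost in some, and 0 changed sign. With library size alone the median of all genes moved to -0.10 for ATF3 against CXCL14 siRNA and to -0.11 for APOE against CXCL14 siRNA, and the share of higher genes among calls went from 55.2 to 44.0% for ATF3 siRNA against control, from 52.9 to 41.5% and from 52.0 to 39.6% for those direct comparisons. The cause was not tested. Of the 71 histone genes 46 had too few counts at this depth to be tested, 12 of them with no count.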

Other observations

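A further 19 genes carry histone cluster symbols and are listed as pseudogenes, of which 4 had enough counts to be tested and 7 had none. HIST2H2BC, a transcribed H2B pseudogene at chr1:149844498-149850937, had 33, 42 and 48 counts in the control libraries and 121, 111 and 111 with CXCL14 siRNA, and rose by 1.21 ± 0.21 on the log2 scale (edgeR adjusted p = 1.45e-04). HIST2H2BD at chr1:149842875-149846486 had 20, 7 and 6 counts in the control and 38, 24 and 31 with CXCL14 siRNA (1.22 ± 0.38, edgeR adjusted p = 0.0122). HIST2H2BA (0.69 ± 0.29, 0.0570) and HIST2H3DP1 (0.81 ± 0.37, 0.0726) did not pass with CXCL14 siRNA. With ATF3 or APOE siRNA the 4 pseudogenes had adjusted p of 0.200 to 0.947. HIST2H2BC and HIST2H2BD overlap each other in position, and whether reads are shared with their coding relatives was not tested.

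The stretch of chromosome 6 that holds 55 histone genes also holds 20 other protein-coding genes, 14 of them tested. With CXCL14 siRNA 7 of these 14 rose (median 0.31), beside 9 of 18 tested histone genes of the stretch that rose and 1 that fell (median 0.94), where 27.4% of all tested genes rose and 28.4% fell. With APOE siRNA 2 rose and 1 fell (median 0.08), beside 9 histone genes that rose (median 0.61), where 22.3% of all tested genes rose and 22.5% fell. With ATF3 siRNA 2 of the 14 rose (median 0.08), beside 1 histone gene that rose and 4 that fell (median -0.21), where 11.2% of all tested genes rose and 9.14% fell.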
